A study of Mus musculus with 17 samples.

Results

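The 10 genes described here are targets of Wnt and beta-catenin signaling that mark the hepatocytes around the central vein: Glul, Axin2, Lgr5, Rnf43, Znrf3, Tbx3, Nkd1, Slc1a2, Oat and Rhbg. They were listed by name, with earlier results of these data known, and all 10 were found among the 19151 genes of the high-fat diet (HFD) count table and among the 24233 genes of the Western diet (WD) count table. RNA-seq had been performed on 17 samples from male C57BL6 mice, all of them after 16 weeks of diet following standard chow, and the labels give no age. Liver-specific NgBR knockout mice (N-LKO) carry loxP-flanked alleles of Nus1, the gene for NgBR, and a Cre driven by the albumin promoter, so the deletion is made in hepatocytes and in other cells that use that promoter. The alleles and Cre status of the WT mice are not given in the labels. Under HFD there were 4 WT and 4 N-LKO livers, and under WD there were 3 WT livers, 3 N-LKO livers and 3 tumors from N-LKO mice. The paper's HFD and WD are separate diet formulas, and WD is high in cholesterol as well as in fat. The labels call the replicates biological but do not tie tumors to the mice that gave the N-LKO livers, so p-values measure the spread between these samples.

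Hepatocytes along the axis from portal to central vein use different genes. Endothelial cells of the central vein secrete Wnt ligands and R-spondin, which let beta-catenin accumulate in the nearest hepatocytes and act with TCF factors on target genes. The system carries its own brakes: several of its targets take down receptors or beta-catenin itself. In liver tumors beta-catenin can be switched on by mutation, and Glul, Axin2 and Lgr5 are widely used readouts of that state.

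The members fall into 3 roles. Axin2, a scaffold of the complex that destroys beta-catenin, and Nkd1, which binds the Dishevelled relay, are feedback inhibitors inside the cell. Rnf43 and Znrf3 are membrane ubiquitin ligases that remove Wnt receptors from the cell surface, and Lgr5 is an R-spondin receptor that holds those ligases back. Tbx3 is a T-box transcription factor. Glul makes glutamine from glutamate and ammonia, Oat feeds ornithine into glutamate, Slc1a2 takes up glutamate and Rhbg carries ammonia, so these 4 serve nitrogen metabolism in the last cells before the blood leaves the lobule.

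Positions are those of GRCm38 in the GENCODE M21 annotation, and counts are per whole gene. Glul (ENSMUSG00000026473.15) lies at chr1:153899944-153909723 on the plus strand, Slc1a2 (ENSMUSG00000005089.15) at chr2:102658659-102790784 plus, Rhbg (ENSMUSG00000104445.1) at chr3:88242874-88254709 minus, and Tbx3 (ENSMUSG00000018604.18) at chr5:119670669-119684724 plus. Oat (ENSMUSG00000030934.9) lies at chr7:132557478-132576398 minus, Nkd1 (ENSMUSG00000031661.12) at chr8:88521354-88594884 plus, and Lgr5 (ENSMUSG00000020140.15) at chr10:115450311-115587780 minus. Chromosome 11 holds the other 3, with Znrf3 (ENSMUSG00000041961.14) at chr11:5276324-5444847 minus, Rnf43 (ENSMUSG00000034177.15) at chr11:87662722-87735539 plus, and Axin2 (ENSMUSG00000000142.15) at chr11:108920349-108950783 plus.

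RefSeq promoter windows on GRCm38.p6, of 250 bases before to 50 after a transcription start, were matched for 6 of the members (7 windows, since Rnf43 has a pair of starts). Those of Axin2 and Glul are printed as the windows of a feedback gene and of a metabolic gene in common use as readouts, and that of Slc1a2 because it holds the motif searched below. The core TCF/LEF motif CTTTGAT was searched on both strands (as ATCAAAG on the other one) and is in capitals where present. All 3 sequences read 5′ to 3′ on the plus strand.
Axin2, chr11:108920099-108920398: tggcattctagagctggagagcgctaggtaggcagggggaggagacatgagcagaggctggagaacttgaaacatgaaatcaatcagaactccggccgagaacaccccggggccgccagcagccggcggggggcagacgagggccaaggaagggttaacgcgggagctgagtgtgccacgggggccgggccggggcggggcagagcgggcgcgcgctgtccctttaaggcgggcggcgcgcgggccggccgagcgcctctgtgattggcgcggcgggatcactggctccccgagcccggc
Glul, chr1:153899679-153899978: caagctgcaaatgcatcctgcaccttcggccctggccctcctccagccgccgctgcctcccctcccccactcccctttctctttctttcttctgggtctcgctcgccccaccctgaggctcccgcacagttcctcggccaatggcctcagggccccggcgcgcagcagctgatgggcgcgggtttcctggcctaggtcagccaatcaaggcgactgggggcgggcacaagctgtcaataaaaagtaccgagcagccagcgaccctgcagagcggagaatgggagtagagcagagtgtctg
Slc1a2, chr2:102706188-102706487: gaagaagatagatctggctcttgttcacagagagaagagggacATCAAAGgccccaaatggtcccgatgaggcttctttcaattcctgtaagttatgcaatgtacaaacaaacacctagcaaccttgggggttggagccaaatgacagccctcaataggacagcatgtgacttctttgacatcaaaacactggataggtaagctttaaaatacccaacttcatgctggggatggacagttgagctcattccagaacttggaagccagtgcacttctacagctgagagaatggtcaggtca
Among the 6 members the motif was in the Slc1a2 window only, once, on the minus strand with its first base at −207 from the start. The Slc1a2 window belongs to a start inside the annotated gene. The motif was in 3.73% of all 32851 windows, and a related motif, CTTTGAA, which reads TTCAAAG on the opposite strand, was in 5.14% of them and in none of the members'. These matches describe the letters of the windows and nothing about binding.

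Total counts ran from 9096110 to 12215784 in the HFD libraries and from 15494731 to 20200618 in the WD libraries. Levels below are counts per 1000000 counts of the TMM-scaled library (CPM), which can be compared between libraries of one diet. Under HFD the targeted gene, Nus1, ranged from 82.5 to 96.2 CPM over WT livers and from 29.4 to 38.0 CPM over N-LKO livers. Under WD its range was 88.2 to 98.9 CPM for WT livers, 41.7 to 51.1 CPM for N-LKO livers and 28.99 to 43.99 CPM for tumors. No library of an N-LKO mouse overlapped with the WT libraries of its diet. One N-LKO liver under HFD, replicate 2, had the lowest level of its group for 9 of the 10 members, and its values are given apart below. How often it was the lowest over all genes is not given here. Hepatocyte markers summed to 52399 to 68754 CPM in the HFD N-LKO livers, with that library the highest.

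Divided by the summed exon length, the members differed widely in level in WD WT livers. Oat and Glul led with 477 and 455 CPM per kb (means, n = 3), and their libraries overlapped. Slc1a2 followed at 34.8 CPM per kb and Tbx3 at 8.14 CPM per kb. Rnf43 at 4.33, Znrf3 at 3.14, Axin2 at 2.56 and Rhbg at 2.49 CPM per kb formed a run in which each gene overlapped with the next. Nkd1 at 1.04 and Lgr5 at 0.678 CPM per kb were the lowest, and neither overlapped with its neighbor in the order. The 3 most abundant members thus belong to nitrogen metabolism, while Rhbg, of the same role, lay among the feedback genes.

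The first question was whether loss of NgBR changed the program in HFD liver. None of the 10 members passed the test (edgeR quasi-likelihood F test, Benjamini-Hochberg adjusted p under 0.05 over all 13460 genes tested), where 4.84% of all genes did. At an unadjusted p under 0.05 the count was also 0, where 3053 of all genes passed. It was 0 as well at the adjusted threshold by DESeq2, which called 1000 of all genes, and by limma-voom, whose count of all genes is not given here. No member had groups that did not overlap, against 14.8% of all genes. Log2 fold changes of N-LKO against WT were 0.18 (SE 0.24) for Glul, −0.15 (SE 0.21) for Axin2, 0.10 (SE 0.19) for Lgr5, −0.02 (SE 0.22) for Rnf43 and −0.20 (SE 0.18) for Znrf3. They were 0.03 (SE 0.19) for Tbx3, 0.11 (SE 0.30) for Nkd1, −0.38 (SE 0.19) for Slc1a2, −0.23 (SE 0.21) for Oat and 0.18 (SE 0.47) for Rhbg. Their median was 0.01, beside −0.01 over all genes tested.

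Glul in HFD stood at 1316, 1386, 1306 and 1082 CPM in the WT livers. It stood at 1720.5, 664, 1733 and 1656 CPM in the N-LKO livers. Replicates 1, 3 and 4 of the N-LKO group were above all WT livers and replicate 2 was below all of them. The edgeR adjusted p was 0.703 with all libraries. Without N-LKO replicate 2 the log2 fold change was 0.42 (SE 0.10) and Glul passed with an adjusted p of 0.0451, the only member to do so, and over the 14 alternatives the adjusted p ran from there to 0.896. The Glul call in HFD therefore rests on whether that library is counted. That library stood out by its own Glul level, so the lower p without it is not support for a change. With each HFD library left out in turn, 179 to 597 of all genes were called.

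The same library was low in other members. Nkd1 stood at 1.57 CPM there against 4.31 to 4.90 CPM in the other N-LKO livers and 3.15 to 4.00 CPM in WT. Rhbg stood at 1.24 CPM there, against 3.92 to 8.05 CPM in the other N-LKO livers and 2.34 to 7.27 CPM in WT. Axin2 was at 4.70 CPM in it and at 7.46 to 9.76 CPM in the rest of its group. Znrf3, higher there than in 2 of the other N-LKO livers, was the exception.

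Slc1a2 had the largest change and the lowest adjusted p under HFD, 0.251. It stood at 263, 400, 328 and 270 CPM in WT livers and at 240.1, 162.8, 318 and 249 CPM in N-LKO livers. The ranges of the groups overlapped. Oat stood at 627, 1112, 1183 and 973 CPM in WT and 882, 642, 1123 and 666 CPM in N-LKO livers, again with overlap.

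**Figure D1:**
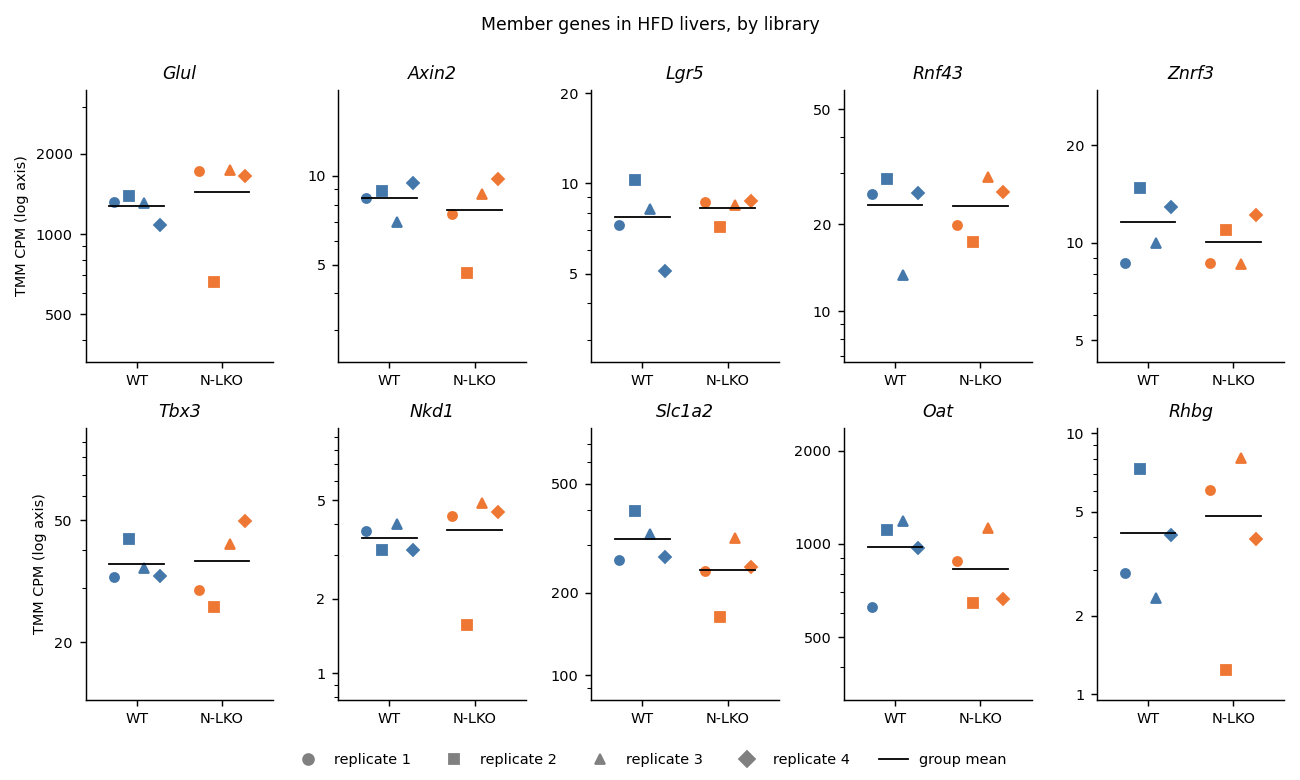
TMM CPM (log axis) of the 10 members in each HFD liver, with symbols for the replicate and lines for the group mean (n = 4). The squares in the N-LKO column are replicate 2, lowest of its group for 9 of 10 members, with Glul at 664 CPM against 1656 to 1733 CPM in the rest of its group.

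Under WD the same comparison called 0 of 17829 genes (0%) and 0 of the 10 members, with 2212 genes and 0 members at an unadjusted p under 0.05. No member was called by DESeq2, which called 100 genes, or by limma-voom, which called 0. None of the members had groups that did not overlap, where 27.9% of all genes did. Log2 fold changes of N-LKO against WT were 0.02 (SE 0.46) for Glul, 0.21 (SE 0.62) for Axin2, 0.34 (SE 0.76) for Lgr5, 0.20 (SE 0.47) for Rnf43 and −0.12 (SE 0.19) for Znrf3. They were −0.35 (SE 0.48) for Tbx3, −0.14 (SE 0.22) for Nkd1, −0.25 (SE 1.13) for Slc1a2, −0.31 (SE 0.88) for Oat and 0.10 (SE 0.57) for Rhbg. This fit shares its estimate of the spread with the tumors. With the tumors left out the lowest adjusted p of a member was 0.382, for Lgr5.

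Glul varied little in these livers. It stood at 1573, 1447 and 1516 CPM in WT and 1685, 1442 and 1477 CPM in N-LKO livers. Axin2 stood at 13.8, 17.5 and 10.97 CPM in WT and 10.3, 22.6 and 16.2 CPM in N-LKO livers. The spread of Axin2 within each group was thus larger than the difference between the groups. WT replicate 2 had the highest level of its group for 7 of the 10 members, with Slc1a2 at 635 CPM against 334 and 404 CPM and Oat at 1629 CPM against 826 and 923 CPM. Its share of highest levels over all genes is not given here.

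The genotype effect was then compared between diets, as an interaction over the 14 livers. It was called for 0 of the 10 members and for 1.62% of the 15850 genes tested. DESeq2, which called 981 of all genes, called 0 members. So did limma-voom, whose count of all genes is not given here. At an unadjusted p under 0.05 there were 0 members and 3171 of all genes. The differences of log2 fold change, WD minus HFD, ran from −0.36 (SE 0.36) for Tbx3 to 0.39 (SE 0.37) for Axin2, and the lowest adjusted p was 0.589. Diet and count table cannot be told apart, so levels were not compared between the diets.

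Tumors were the samples in which the program stood lower. All 10 log2 fold changes were negative against N-LKO liver and against WT liver, with medians of −1.78 and −1.65, beside 0.02 and 0.04 over all genes tested. Both comparisons use the same 3 tumors. For 9 members every tumor was below every one of the 6 WD livers, which held for 7.92% of all genes, and Rhbg was the exception. Tumors and livers of 1 group did not overlap, with the tumors lower, for 9 members against N-LKO liver (11.6% of all genes) and for the same 9 against WT liver (16.4%). In bulk tissue, fewer cells of a type and less RNA per cell cannot be told apart.

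By test, 3 members fell in tumors against WT liver, where 6.8% of 17829 genes were called lower: Nkd1, Tbx3 and Znrf3. Against N-LKO liver 1 member fell, Nkd1, where 0.0617% of genes were called lower. Unadjusted p was under 0.05 for 8 members in each comparison. Of all 17829 genes it was so for 5803 against WT liver and for 3256 against N-LKO liver.

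Nkd1, the Dishevelled-binding inhibitor, stood at 4.60, 5.22 and 4.41 CPM in WT livers, 3.96, 4.56 and 4.36 CPM in N-LKO livers and 1.91, 1.56 and 1.20 CPM in tumors 1, 2 and 3. The tumors lay close together, with a coefficient of variation of 22.9%, and all were below the lowest liver. Its log2 fold change was −1.60 (SE 0.23, edgeR adjusted p 0.00725) against WT and −1.46 (SE 0.23, edgeR adjusted p 0.0308) against N-LKO liver. The first call held under all 16 alternatives (adjusted p 5.57e-07 to 0.0367). The second held under 6 of 16 (2.70e-05 to 0.191) and the fits that lost it include limma-voom, that of only the 2 groups, and those without WT replicate 1 or 3, any N-LKO replicate, or tumor 2 or 3, with the fold change between −1.51 and −1.31.

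Tbx3, the transcription factor, stood at 36.0, 75.5 and 50.2 CPM in WT livers and at 32.6, 57.0 and 37.3 CPM in N-LKO livers. In tumors 1, 2 and 3 it stood at 19.8, 3.91 and 8.45 CPM. Every tumor was below the lowest liver. It fell against WT by 2.33 on the log2 scale (SE 0.51, edgeR adjusted p 0.0187), a call that held under 14 of 16 alternatives (2.38e-05 to 0.0689) and was lost without WT replicate 2 (−2.02) and with only the 2 groups fitted. Against N-LKO liver the log2 fold change was −1.98 (SE 0.50, edgeR adjusted p 0.0966).

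Znrf3, a ligase against Wnt receptors, moved least of the called members. It stood at 20.0, 30.4 and 23.9 CPM in WT livers, 20.5, 24.4 and 23.7 CPM in N-LKO livers and 19.5, 13.7 and 14.7 CPM in tumors. Tumor 1 lay just under the lowest liver. Its log2 fold change against WT was −0.63 (SE 0.19, edgeR adjusted p 0.0494) and that call held under 5 of 16 alternatives (0.0162 to 0.167), the losses including limma-voom (0.0530), only the 2 groups fitted (0.102) and each fit that left out a library other than tumor 1, with fold changes of −0.77 to −0.47. Against N-LKO liver the value was −0.52 (SE 0.19, edgeR adjusted p 0.192).

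Rnf43, the partner ligase, stood at 31.2, 30.4 and 23.7 CPM in WT livers and 29.1, 34.6 and 34.1 CPM in N-LKO livers. It stood at 22.9, 3.65 and 9.65 CPM in the tumors. Tumor 1 was near the livers and tumor 2 far below them. The log2 fold change was −1.24 (SE 0.48, edgeR adjusted p 0.104) against WT and −1.44 (SE 0.48, edgeR adjusted p 0.162) against N-LKO liver.

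Axin2 stood at 7.69 CPM in tumor 1, 0.890 CPM in tumor 2 and 1.09 CPM in tumor 3, under a liver range of 10.3 to 22.6 CPM. Its log2 fold changes were −2.13 (SE 0.67, edgeR adjusted p 0.0588) against WT and −2.35 (SE 0.67, edgeR adjusted p 0.123) against N-LKO liver. Axin2 RNA was in no tumor above a liver, and beta-catenin activity itself was not tested.

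Lgr5, the R-spondin receptor, stood at 5.70, 9.22 and 5.96 CPM in WT livers and 7.44, 8.78 and 10.3 CPM in N-LKO livers. It stood at 5.63 CPM in tumor 1, about the level of the lowest WT livers. In tumor 2 it had 3 counts, or 1.92% of the WT mean with an exact Poisson interval (95%) of 0.395% to 5.60%, and in tumor 3 it had 13 counts, or 9.74% (5.18% to 16.6%), intervals that cover counting error only. Log2 fold changes were −1.70 (SE 0.82, edgeR adjusted p 0.178) against WT and −2.05 (SE 0.81, edgeR adjusted p 0.223) against N-LKO liver.

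Glul, the glutamine synthetase, stood at 1032 CPM in tumor 1, 242 CPM in tumor 2 and 270 CPM in tumor 3, where the 6 livers held 1442 to 1685 CPM. Those are 68.2%, 16.0% and 17.8% of the WT mean. The log2 fold change was −1.56 (SE 0.47, edgeR adjusted p 0.0516) against WT, just outside the threshold, and it passed under 7 of 16 alternatives (0.000114 to 0.118). Against N-LKO liver it was −1.58 (SE 0.47, edgeR adjusted p 0.133). Glul had fractional values in all 8 HFD and all 9 WD libraries, as the authors' software splits a read between features it could come from, and its level is uncertain by that share. Slc1a2 and Rhbg were likewise fractional in 8 HFD and 7 WD libraries.

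Slc1a2, the glutamate transporter, had the lowest percent of the WT mean of any member in tumors 2 and 3, and Oat came next in tumor 3. Slc1a2 stood at 204 CPM in tumor 1, 3.38 CPM in tumor 2 and 4.95 CPM in tumor 3, against 334 to 635 CPM in the livers. Oat stood at 586, 38.4 and 33.0 CPM, against 826 to 1629 CPM in the livers. In tumors 2 and 3 Slc1a2 was thus at 0.739% and 1.08% of the WT mean, and Oat at 3.41% and 2.93%. With tumor 1 between these and the livers, the log2 fold changes against WT had large errors, −2.69 (SE 1.20, edgeR adjusted p 0.150) for Slc1a2 and −2.36 (SE 0.93, edgeR adjusted p 0.108) for Oat. Against N-LKO liver they were −2.44 (SE 1.19, edgeR adjusted p 0.309) and −2.05 (SE 0.91, edgeR adjusted p 0.269).

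Rhbg, the ammonia transporter, did not share this order. It stood at 6.13 CPM in tumor 1 and 4.36 CPM in tumor 2, both within the liver range of 3.56 to 6.999 CPM, and at 0.626 CPM in tumor 3. The log2 fold changes were −0.38 (SE 0.57, edgeR adjusted p 0.686) against WT and −0.48 (SE 0.57, edgeR adjusted p 0.699) against N-LKO liver.

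**Figure D2:**
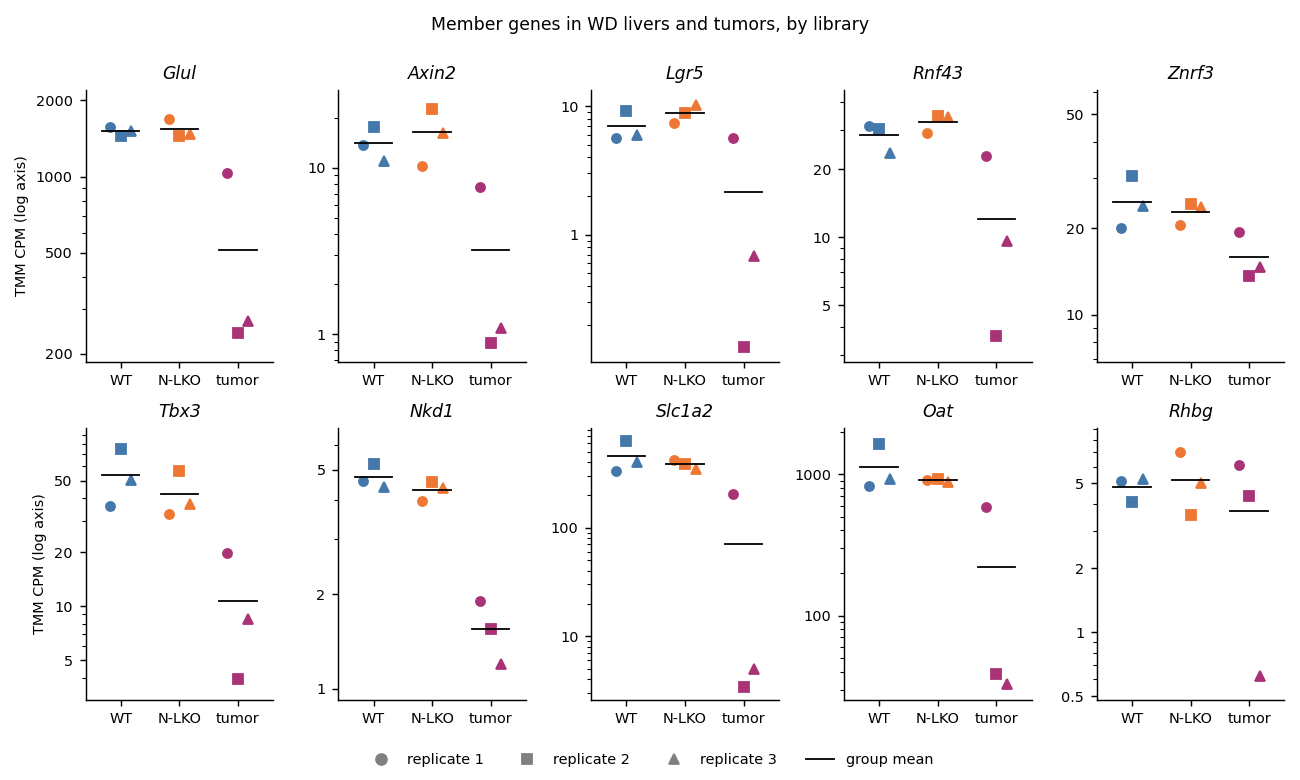
TMM CPM (log axis) of the 10 members in each WD liver and tumor, with symbols for the replicate and lines for the group mean (n = 3). For 9 members all tumors lie below all livers, while Rhbg overlaps, and tumor 1 (circle) is the highest tumor in each panel.

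Set side by side, the tumors differed in degree. Tumor 1 was the highest tumor for all 10 members and tumor 2 the lowest for 7 of them. The shares of all genes with these orders are not given here, so the orders may not be particular to the members. The median member stood at 61.4% of the WT mean and 64.1% of the N-LKO mean in tumor 1, at 10.1% and 10.2% in tumor 2, and at 14.3% and 14.8% in tumor 3. Over all genes tested the same median was 102.2%, 100.5% and 101% of the WT mean. Below all 6 livers were 9 members in tumor 1, 9 in tumor 2 and 10 in tumor 3, where 21.3%, 28.4% and 25.2% of all genes were. In tumor 1 the gap of Lgr5, Rnf43 and Znrf3 to the lowest liver was within counting error.

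**Figure D3:**
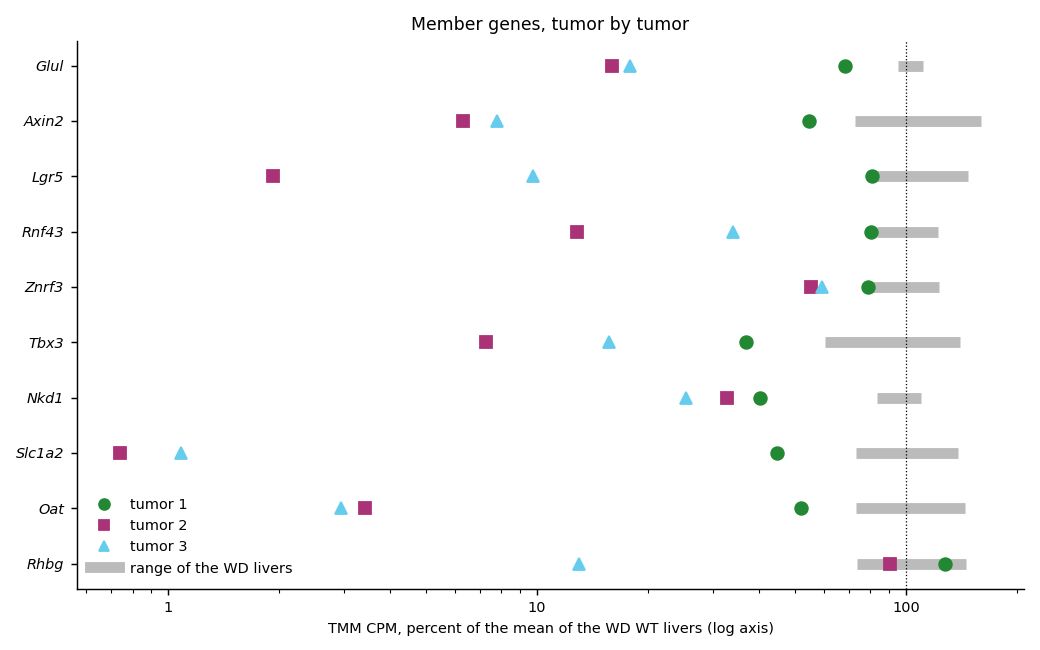
Each tumor's CPM as a percent of the mean of the 3 WD WT livers (log axis), with grey bars for the range of the 6 WD livers. Tumors 2 and 3 lie between 0.739% and 90.4% of the WT mean and tumor 1 between 36.8% and 127%.

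Tumor 1 decided how many members passed. With tumor 1 left out, so that 2 tumors remained, 9 members fell against N-LKO liver (5.59% of 18285 genes were then called lower) and 9 fell against WT liver (10.1%), Rhbg being the exception in each. The log2 fold changes were then −2.59 for Glul, −4.04 for Axin2, −4.48 for Lgr5, −4.67 for Oat and −6.54 for Slc1a2 against N-LKO liver, with edgeR adjusted p from 0.000144 to 0.00134. Leaving out tumor 2 or tumor 3 instead gave 0 members against N-LKO and 2 against WT liver.

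**Figure D4:**
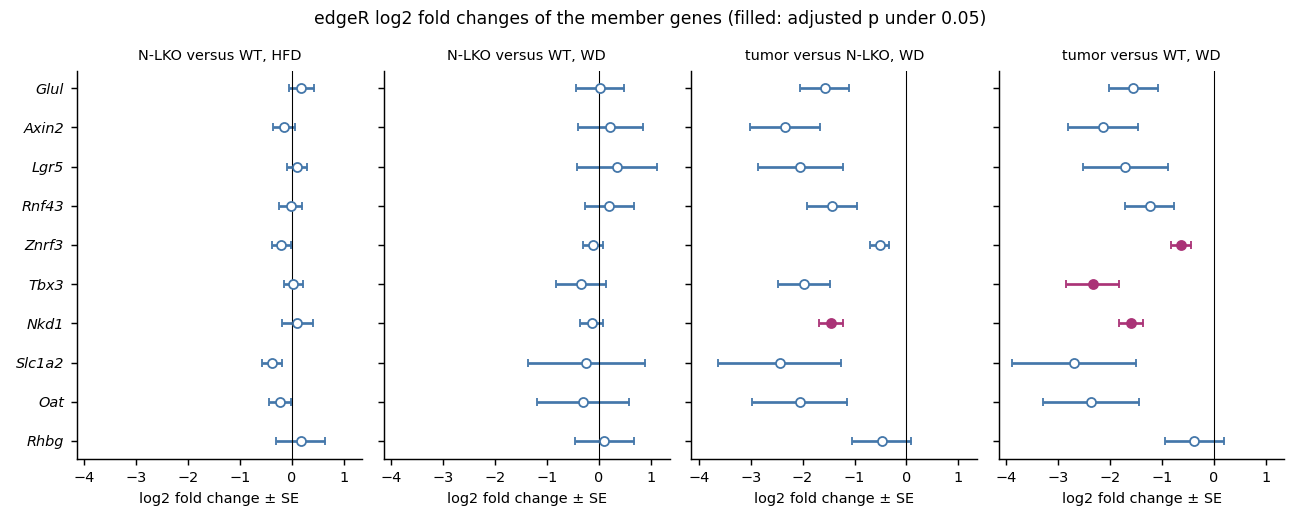
Log2 fold changes with their SE (edgeR) of the 10 members in the comparisons of 2 groups, with filled points for an adjusted p under 0.05. In both panels with livers only the values lie between −0.38 and 0.34 and none is filled, while with tumors all values are negative and those of Nkd1, and against WT also Tbx3 and Znrf3, are filled.

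Cell type markers were set beside these values. Hepatocyte markers (4 of 5 listed) summed to 31793 to 55196 CPM in tumors, 28715 to 36305 CPM in N-LKO and 39449 to 49815 CPM in WT livers under WD, and none was at 0 in a library. Cholangiocyte markers (5 of 5, none at 0) summed to 195 to 523 CPM in tumors, 115 to 151 CPM in N-LKO and 17.2 to 69.6 CPM in WT livers. Endothelial markers (6 of 6, none at 0) summed to 294 to 339 CPM in tumors and 251 to 309 CPM in the livers. They were Pecam1, Kdr, Stab2, Lyve1, Clec4g and Cdh5, a list that does not measure the endothelium of the central vein apart. Stellate cell and fibroblast markers summed to 362 to 621 CPM in tumors and 394 to 757 CPM in livers, macrophage markers to 174 to 426 CPM and 429 to 676 CPM, and T cell markers to 7.30 to 10.7 CPM and 2.61 to 4.89 CPM, all 5 of each list being present and none at 0. By test against WT liver, 14.9% of all genes passed and 6.8% were called lower. There 2 of 4 hepatocyte markers fell, Hnf4a among them. Of 6 endothelial markers, Pecam1 and Cdh5 rose and Clec4g fell. Spp1 and Sox9 rose among 5 cholangiocyte markers and Cd3g and Cd4 among 4 T cell markers tested, while Reln fell among 5 stellate cell markers and Cd5l among 5 macrophage markers. Against N-LKO liver, where 89 of 17829 genes passed, Sox9 alone of the markers did, higher in tumors. Tumor 1 had the highest stellate cell and fibroblast sum of the tumors (621 CPM, against 362 and 365 CPM), the highest macrophage sum (426 CPM) and the lowest endothelial sum (294 CPM). The part of cell composition in the member levels was not tested.

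The rest of the pathway was read from 8 lists, of which 11 of 71 genes tested passed in tumors against WT liver, where 14.9% of all genes did. Among the ligands and R-spondins, 6 of 8 genes were tested, 1 fell and 1 rose in tumors against WT liver, and none passed in the other comparisons. Wnt4 fell with a log2 fold change of −1.59 (SE 0.44, edgeR adjusted p 0.0384), from 2.13 CPM in WT to 0.704 CPM in tumors. Wnt5a, a ligand that mostly signals without beta-catenin, rose by 1.28 (SE 0.33, edgeR adjusted p 0.0310) on that scale, from 2.29 to 5.55 CPM. N-LKO livers, at 4.80 CPM on average, were already near the tumors for Wnt5a. Wnt2, Wnt9b and Rspo3, named after their values were seen because the central vein endothelium makes them, did not pass. Wnt2 stood at 2.56, 0.222 and 0.678 CPM in tumors 1, 2 and 3 against 3.04 to 5.08 CPM in the livers, and Rspo3 at 7.09, 2.27 and 2.82 CPM against 5.29 to 12.8 CPM. Wnt9b stood at 0.905, 0.356 and 0.209 CPM against 0.417 to 1.42 CPM, levels that rest on few counts. For these chosen ligands tumor 1 was the highest tumor, and tumors 2 and 3 were below all livers. Wnt4 was likewise highest in tumor 1 (1.21, 0.489 and 0.417 CPM). Wnt2b, also named after its values were seen, and Wnt5a were highest in tumor 2. They stood at 1.51, 1.78 and 1.25 CPM and at 6.03, 6.72 and 3.91 CPM. Tumor 2 was within the liver range for Wnt2b and above it for Wnt5a.

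Of the receptors and co-receptors, 11 of 12 were tested and 1 passed, Ryk, which fell in tumors against WT liver by 0.57 on the log2 scale (SE 0.15, edgeR adjusted p 0.0355). Of the destruction complex and its relays, 10 of 10 were tested, 1 fell under HFD and none passed in the WD comparisons, with a median log2 fold change of −0.11 in tumors against WT liver. Ctnnb1, which encodes beta-catenin and was chosen after its values were seen, stood at 246, 202 and 253 CPM in the tumors and at 204 to 218 CPM in the livers. The transcript of beta-catenin itself was thus about at the lowest liver in tumor 2 and above all livers in tumors 1 and 3. Of the nuclear factors, 7 of 8 were tested, and against WT liver Bcl9l fell (−1.31, SE 0.25, edgeR adjusted p 0.0133) and Pygo1 rose (3.55, SE 0.69, edgeR adjusted p 0.0139), both being co-activators of beta-catenin. Pygo1 stood at 7.84, 1.25 and 10.4 CPM in tumors 1, 2 and 3, with tumor 2 inside the low liver range of 0.358 to 1.49 CPM. Of secreted inhibitors and other feedback genes, 5 of 13 were tested and Dkk3 rose (0.77, SE 0.16, edgeR adjusted p 0.0160) in tumors against WT liver. N-LKO livers at 11.5 CPM on average were already above the tumors at 10.1 CPM, with WT livers at 5.90 CPM.

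Among 6 other beta-catenin targets, 1 fell and 1 rose in tumors against WT liver. Sp5, a transcription factor gene, fell with a log2 fold change of −3.27 (SE 0.66, edgeR adjusted p 0.0156). It stood at 0.754, 0.0890 and 0.0521 CPM in tumors 1, 2 and 3 against 1.42 to 3.43 CPM in livers. In tumor 2, 3 counts of Lgr5 made 0.133 CPM, so Sp5 rests on fewer counts there, and its CPM in tumor 3 was lower still. Ephb2, an ephrin receptor, rose (1.69, SE 0.38, edgeR adjusted p 0.0201), although N-LKO livers at 17.2 CPM on average were already near the tumors at 18.5 CPM, with WT livers at 5.72 CPM. Ccnd1, which encodes cyclin D1, rose in N-LKO liver under HFD (0.86, SE 0.16, edgeR adjusted p 0.0170), from 34.0 to 61.7 CPM. Ccnd1 also stood at 139, 66.6 and 192 CPM in the tumors against 25.8 to 89.5 CPM in the WD livers, a difference that was not called. Against N-LKO liver the log2 fold change of Ephb2 was 0.11 (SE 0.35, edgeR adjusted p 0.909).

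Of other pericentral hepatocyte genes all 14 were tested, and against WT liver 1 fell, about the share of all genes called lower (6.8%): Nr1i3, a nuclear receptor for drugs and bile acids (−1.82, SE 0.33, edgeR adjusted p 0.0116). The median of the list was −1.51 against WT and −1.19 against N-LKO liver. Below all 6 livers were 7 of the 14 genes in tumor 1, 13 in tumor 2 and 12 in tumor 3, where 21.3%, 28.4% and 25.2% of all genes were. Cyp2e1, named after its values were seen as a drug-metabolizing P450, stood at 3254, 130 and 229 CPM in tumors 1, 2 and 3 against 5326 to 10964 CPM in livers. Cyp2a5, another P450 named after its values were seen, stood at 345, 1372 and 169 CPM in tumors 1, 2 and 3 against 201 to 551 CPM in livers. It was thus above all livers in tumor 2 only and below them in tumor 3.

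Of periportal hepatocyte genes all 12 were tested, and in tumors against WT liver Pck1, a gluconeogenic enzyme, fell (−1.87, SE 0.46, edgeR adjusted p 0.0269) and Cdh1, the E-cadherin gene, rose (1.68, SE 0.30, edgeR adjusted p 0.0113). The list's median was −0.11 against WT and 0.78 against N-LKO liver. Below all 6 livers were 3, 4 and 1 of the 12 genes in tumors 1, 2 and 3, beside 21.3%, 28.4% and 25.2% of all genes. Above all 6 livers were 1, 5 and 5 of them, beside 23.9%, 29.1% and 26.4% of all genes. Hsd17b13, a lipid droplet enzyme, rose in HFD N-LKO liver (0.67, SE 0.10, edgeR adjusted p 0.00988), and Cyp2f2 was the list's only gene with a genotype effect that differed between diets (−1.22 WD minus HFD, SE 0.27, edgeR adjusted p 0.0355). No gene of the 8 lists (71 tested) passed in N-LKO against WT liver under WD or in tumors against N-LKO liver.

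**Figure D5:**
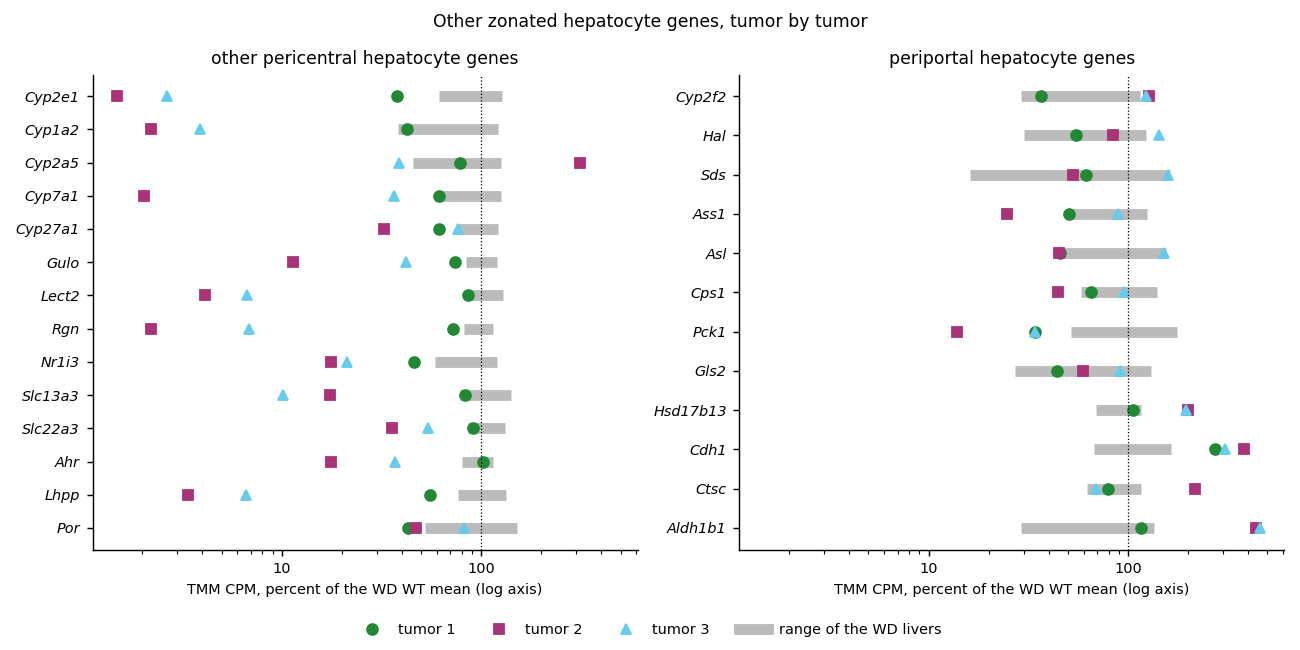
CPM of other pericentral genes (left) and periportal genes (right) in each tumor, as a percent of the WD WT mean (log axes), with grey bars for the range of the 6 WD livers. In tumors 2 and 3, 13 and 12 of 14 pericentral genes lie below the bars, against 4 and 1 of 12 periportal genes.

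The genes whose pattern over the 9 WD libraries was most like that of Glul and of Axin2 were found by the root mean square difference of log2 CPM after centering each gene, among 10811 genes with a mean of at least 5 CPM. For Glul these were Glns-ps1 (0.15), Gm4949 (0.18), Acnat2 (0.22), Adam23 (0.24) and Aqp9 (0.25). For Axin2 they were Cldn2 (0.39), Lhpp (0.40), Slco1b2 (0.44), Lgr5 (0.49) and Akr1c6 (0.51). Lgr5 was thus the closest member to Axin2, followed by Tbx3 (0.51), while Rnf43 was the closest to Glul (0.35) at rank 25. Glns-ps1 is a glutamine synthetase pseudogene that shares sequence with Glul, so its likeness can come from shared reads. Cldn2 averaged 137.8 CPM over WT livers and 144 CPM over N-LKO livers, and at 118, 14.8 and 12.0 CPM in tumors 1, 2 and 3.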

How the data were processed

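RNA-seq libraries from 14 livers and 3 tumors of mice were analysed, with groups and replicate numbers taken from the sample titles. The authors removed ribosomal RNA with Ribo-Zero, read the libraries single-end (Illumina HiSeq), trimmed for quality and aligned with TopHat2, while the submitters' processing notes name STAR, Partek and mm9. The positions in the tables match GRCm38 and GENCODE M21, and those are printed. As deposited, each value is an estimated count for a gene, for which the authors used Partek Flow, and a read can be divided between features. The values were not scaled and replicates were not pooled. Of the values, 69.3% (HFD) and 66.2% (WD) were whole, and near-identical, overlapping and antisense genes are uncertain. All columns of per-sample values were assigned (0 were not).

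After rounding, differences were tested by the two-sided quasi-likelihood F test of edgeR 4.0.16 (R 4.3.3) with TMM and filterByExpr, at a Benjamini-Hochberg adjusted p under 0.05 over all genes tested. HFD livers were fitted alone, the 9 WD libraries together and the interaction over 14 livers and the genes in both tables. The study's own test (cuffdiff) needs aligned reads, which were not used here. SE is approximate, the log2 fold change over the root of its F value. Log2 CPM for likeness used a prior count of 2. Total counts per library were 9096110 to 20200618, and counting intervals cover counting error only. Alternatives were DESeq2 1.42.0 size factors, no filter, the DESeq2 Wald test, limma 3.58.1 voom, an offset for length and GC content, a replicate block, each library left out and, under WD, only the 2 groups compared. The fits were tested on simulated data.

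The members, gene lists and tests were chosen with earlier results of these data known. Named genes were the 10 members, the genes of each list with an adjusted p under 0.05 in any of the 5 comparisons (at most 4 per list and comparison, otherwise the 2 most abundant), and the 5 genes most like Glul and Axin2. Others are marked as chosen after their values were seen. The values of 1 gene of the lists are not reported here. Promoter windows came from RefSeq on GRCm38.p6.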

Additional observations from a re-analysis of the deposited data

Results flagged for a closer look

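A library far from the other 3 of its group was looked for in each HFD group and member, 20 cases in all, by the ratio of its gap to the range of the group (Dixon's ratio, against its 95% critical value for 4 libraries). Chance picks out about 1 group in 20. N-LKO replicate 2 under HFD stood apart in this way for 2 members. Glul stood at 664 CPM in it and at 1656 to 1733 CPM in the rest of the group. Lgr5 stood at 7.17 CPM in it and at 8.49 to 8.72 CPM in the rest of the group, a smaller gap within a narrow range. Its hepatocyte marker sum was the highest of its group (68754 CPM) and its endothelial (76.8 CPM), stellate cell and fibroblast (178 CPM), cholangiocyte (54.5 CPM) and macrophage (53.9 CPM) sums were the lowest. The part of those sums in its member levels was not tested.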

How the results depend on the processing

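The number of members called was 0 in both liver comparisons and in the interaction under every setting, except that it was 0 to 1 when HFD libraries were left out in turn. In tumors against N-LKO liver (1 with all libraries) it was 4 by the DESeq2 Wald test, 0 by limma-voom, 0 with only the 2 groups compared and 0 to 9 with a library left out. In tumors against WT liver (3) it was 6 by DESeq2, 8 by limma-voom, 1 with only the 2 groups compared and 1 to 9 with a library left out, the 9 in each case without tumor 1, which leaves 2 tumors. Same-numbered libraries did not deviate together (correlations −0.12 to 0.11, over 0.1 in 2 of 13 pairs), so the samples were not treated as pairs. These correlations cannot show whether a tumor and a liver came from the same mouse. With the replicate block the counts were 0 and 3 in the tumor comparisons: Nkd1 no longer passed against N-LKO liver (adjusted p 0.0775), and against WT liver Znrf3 no longer passed (0.0883) while Glul did (0.0364). All genes called ranged from 179 to 1000 in HFD (652), from 0 to 100 under WD livers (0) and from 0 to 981 for the interaction (257). In tumors against N-LKO liver (89) they ranged from 3, without N-LKO replicate 2, to 2193, without tumor 1. Against WT liver (2653) they ranged from 569, without WT replicate 2, to 3819, without tumor 1. For the other settings of the tumor comparisons the counts of all genes are not given here, so those member counts lack that background.

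Small values in the livers changed sign, none of them called. In HFD, Rnf43 was 0.036 with the length and GC offset, and limma-voom gave −0.011 for Tbx3, −0.024 for Nkd1 and −0.032 for Rhbg. Under WD, Glul was −0.0096 without a filter and −0.079 with the length and GC offset. In the interaction, that offset gave −0.0033 for Znrf3, −0.12 for Slc1a2 and 0.11 for Rhbg, limma-voom gave 0.0030 for Oat and 0.10 for Rhbg, and the replicate block gave 0.011 for Oat. With a library left out, HFD values ran from −0.29 to 0.029 (Axin2), −0.055 to 0.27 (Lgr5), −0.21 to 0.094 (Rnf43), −0.15 to 0.17 (Tbx3), −0.013 to 0.37 (Nkd1) and −0.15 to 0.60 (Rhbg). WD values ran from −0.052 to 0.063 (Glul), −0.093 to 0.46 (Axin2), −0.25 to 0.055 (Znrf3), −0.43 to 0.061 (Slc1a2), −0.49 to 0.051 (Oat) and −0.18 to 0.31 (Rhbg). The interaction ran from −0.035 to 0.26 (Znrf3), −0.024 to 0.44 (Slc1a2), −0.23 to 0.29 (Oat) and −0.47 to 0.28 (Rhbg). Rhbg in tumors ran from −1.04 to 0.014 against N-LKO and from −0.93 to 0.12 against WT liver, and was positive only without tumor 3. The causes were not tested. The depth limits the lowest values most: among the members Lgr5 in tumor 2 rests on 3 counts, and Sp5 of the lists had a lower CPM still in tumors 2 and 3.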
